A study of Mus musculus with 8 samples.

Results

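Interferon-induced genes are the transcripts that a cell switches on when interferon binds its receptor. Of 32 such genes listed for mouse, 30 were measured among the 18193 genes of the array. Members were all probe sets whose platform symbol is a listed gene, and each gene was represented by its brightest probe set, taken by the mean of the 8 arrays. Isg15 was listed only on a probe set shared with a second gene, Ifi44 had no probe set under that symbol, and both were not analysed here.

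Total RNA came from sorted Sca1+Lin- bone marrow cells, which carry the surface marker Sca1, lack lineage markers and are enriched for haematopoietic stem and progenitor cells. The arrays compared 3 wild-type (WT) samples with 5 samples from mice with a Sca1-MALT1 transgene. MALT1 is a scaffold and protease that carries antigen receptor signals to NF-kB, and the name of the transgene joins it to Sca1. The cells that express it, the number of lines used, and the age and strain of the mice were not stated in the labels. Values are log2 signals of 1-colour Affymetrix arrays, with array medians of 6.40 to 6.48, and all differences are Sca1-MALT1 minus WT, each with its standard error (SE) from limma.

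Type I interferons signal through the receptor chains Ifnar1 and Ifnar2 and the kinases Jak1 and Tyk2 to a complex of STAT proteins with Irf9, which binds the interferon-stimulated response element (ISRE) in promoters. Interferon gamma, the type II interferon of T and NK cells, acts through other receptor chains and a STAT dimer that binds the gamma-activated sequence (GAS). The products sense viral RNA and DNA, block viral translation and entry, and feed back on the pathway. In bone marrow, interferon is known to push quiescent stem cells into cycle.

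The promoters of many members share the response element, and the stretches below show it upstream of the start site in 8 measured members. Stat2 and the unmeasured Isg15 also held it upstream and are not printed. The core of the ISRE, written as GAAA, any 2 bases and GAAA, was searched on both strands in RefSeq windows of 250 bases before to 50 after each gene's start (build GRCm38.p6). The core was found in 13 of 24 members with a window, 54.2%, against 3.99% of 27025 genes. The GAS core TTCNNNGAA was found in 5 of the 24, 20.8%, against 9.55% of all genes. Each stretch below is written on the strand of its gene, with the matches to the ISRE core in capitals and at most 20 bases either side.
Ifit1 (GRCm38.p6, chr19:34640765-34640833, plus strand): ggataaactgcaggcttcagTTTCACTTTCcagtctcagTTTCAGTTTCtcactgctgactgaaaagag
Ifit3 (GRCm38.p6, chr19:34583353-34583436, plus strand): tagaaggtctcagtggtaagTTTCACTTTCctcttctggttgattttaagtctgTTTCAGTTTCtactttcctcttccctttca
Oas1a (GRCm38.p6, chr5:120907526-120907565, minus strand): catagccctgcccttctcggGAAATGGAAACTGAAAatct
Oas3 (GRCm38.p6, chr5:120777705-120777754, minus strand): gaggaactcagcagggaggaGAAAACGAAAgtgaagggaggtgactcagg
Gbp2 (GRCm38.p6, chr3:142620584-142620633, plus strand): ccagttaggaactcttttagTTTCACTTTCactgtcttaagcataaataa
Gbp3 (GRCm38.p6, chr3:142559979-142560034, plus strand): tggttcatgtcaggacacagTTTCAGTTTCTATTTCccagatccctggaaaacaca
Rsad2 (GRCm38.p6, chr12:26456543-26456592, minus strand): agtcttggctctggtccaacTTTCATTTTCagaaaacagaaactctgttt
Trim30a (GRCm38.p6, chr7:104465200-104465249, minus strand): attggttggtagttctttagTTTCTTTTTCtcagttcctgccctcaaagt
In Ifit1 the 2 cores start at positions -104 and -85 from the start site, and in the neighbouring gene Ifit3 at -156 and -122. In Gbp3 and in Oas1a the 2 cores overlap and share their middle letters. The 12 measured members with the core had a median log2 difference of -0.19, 8 of them below 0, and the 10 measured members without it had a median of -0.20, also 8 below 0. Over all genes, the medians were 0.01 with the core (524 genes) and 8.4e-05 without it (13928 genes).

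No interferon-induced gene passed the test between the genotypes, and most had a lower mean in Sca1-MALT1. The difference was below 0 in 23 of 30 members, where 49.3% of all genes tested were below 0. Their median difference was -0.22, against 0.0040 over all genes. By limma with Benjamini-Hochberg adjustment over all genes, 0 of 30 members had an adjusted p under 0.05, where 0.0879% of all genes did. The adjusted p-values of the members ran from 0.317 to 0.991. At an unadjusted p under 0.05 limma called 2 members, Zbp1 and Ifi27l2a, where 10.2% of all genes were called. At the looser threshold of 0.10 none was called either, where 0.209% of all genes were. The groups did not overlap in 3 members, 10% of them, where this held for 7.13% of all genes. Zbp1 was the 1 member wholly above WT, where 4.27% of all genes were, and Ifi27l2a and Mx2 were the 2 wholly below, where 2.87% were.

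The lower median rested in part on Sca1-MALT1 replicate 1. Without that array, the median of the members was -0.076 and 16 of 30 were below 0. Without Sca1-MALT1 replicate 2 the median was -0.32, with 26 of 30 below 0. In that fit 10 members had an unadjusted p under 0.05, 9 of them below 0, where 11.2% of all genes did, and again none passed the adjusted threshold. Among the 5 Sca1-MALT1 arrays, replicate 2 was the highest in 23 of 30 members and replicate 1 the lowest in 15. Over all 18193 genes these counts were 2432 and 2787. Both shifts thus follow from which array was left out, and the count without replicate 2 is no separate evidence of a decrease. In a bulk sample, fewer cells of a type and less RNA per cell cannot be told apart.

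**Figure D1:**
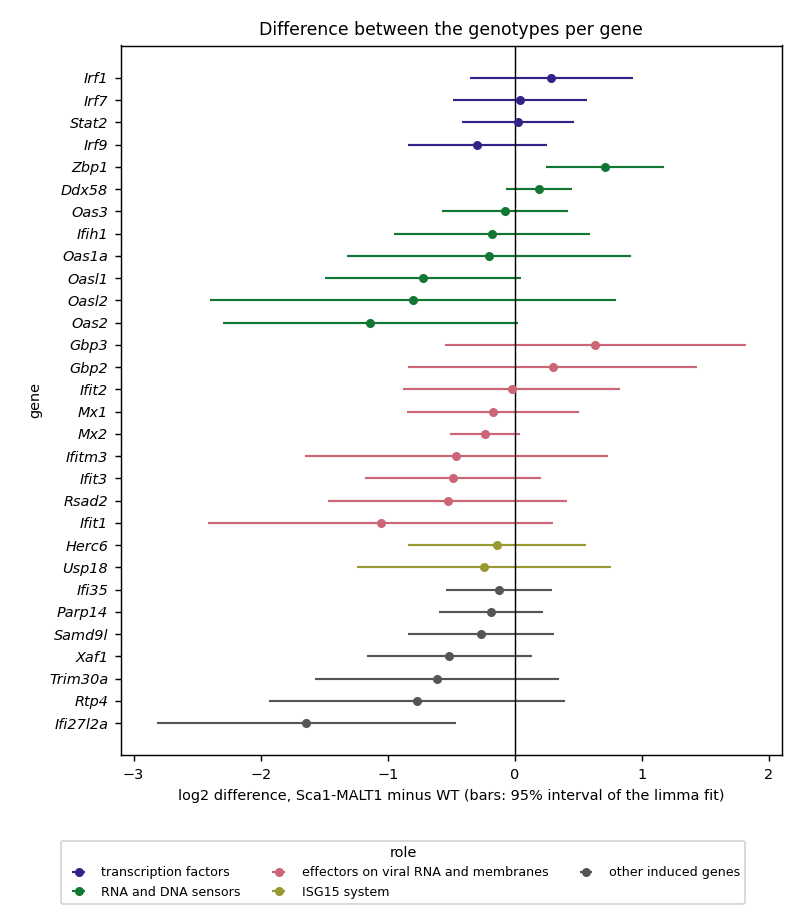
Log2 difference, Sca1-MALT1 minus WT, for the 30 interferon-induced genes, coloured by role; points are the estimates of the limma fit and bars their 95% intervals (3 WT and 5 Sca1-MALT1 arrays). The intervals of Zbp1 (0.25 to 1.17) and Ifi27l2a (-2.82 to -0.46) exclude 0, before adjustment for the number of genes tested.

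Among the transcription factors of the response, the 95% interval of each difference spanned 0. Irf9, the DNA-binding subunit of the type I complex, stood at -0.30 (SE 0.24) and its partner Stat2 at 0.02 (SE 0.19, 95% interval -0.42 to 0.46). Irf7, which amplifies interferon alpha production, differed by 0.04 (SE 0.23), with a lowest, median and highest signal of 8.72, 9.05 and 9.75 among the Sca1-MALT1 arrays and a WT mean of 9.10 ± 0.13 (SD, n = 3). Irf1, which interferon gamma induces, differed by 0.29 (SE 0.28), to 11.89 ± 0.40 (n = 5). The median of these 4 genes was 0.03. The signs of Irf7 and Stat2 each changed when single arrays were left out.

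Zbp1 was the member with the lowest p and the only one whose arrays were all above WT. It encodes a sensor of Z-form nucleic acids that triggers necroptosis. Its signal was 7.30, 7.52 and 7.35 in WT replicates 1, 2 and 3 and 8.09, 8.62, 7.67, 7.93 and 8.18 in Sca1-MALT1 replicates 1 to 5. The log2 difference was 0.71 (SE 0.20, 1.63-fold higher, adjusted p = 0.317), and the dimmer of its probe sets stood at 0.41 with overlapping groups. Both groups lay above the array medians.

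The cytosolic RNA sensors differed little. Ddx58, the gene of RIG-I, read 10.25, 10.39 and 10.18 in WT and 10.55, 10.63, 10.47, 10.32 and 10.34 in Sca1-MALT1 replicates 1 to 5. The first 3 of these Sca1-MALT1 arrays were above all WT arrays, and the difference was 0.19 (SE 0.11, adjusted p = 0.627). The dimmest of its 3 probe sets had the opposite sign, at -0.07. Ifih1, the gene of MDA5, differed by -0.18 (SE 0.34).

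The oligoadenylate synthetase genes, whose products make the second messenger that activates RNase L, differed from one another. Oas2 read 10.23, 9.01 and 9.27 in WT and 7.97, 9.01, 7.68, 9.58 and 7.60 in Sca1-MALT1. Replicates 1, 3 and 5 were below all WT arrays, replicate 2 came within rounding of the lowest WT array and replicate 4 lay among them, a difference of -1.14 (SE 0.51, adjusted p = 0.498). Its neighbours on chromosome 5, Oas1a and Oas3, stood at -0.21 (SE 0.49) and -0.076 (SE 0.22). Both had their highest signal of all 8 arrays in Sca1-MALT1 replicate 4, at 11.59 and 8.33.

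The related genes Oasl1 and Oasl2 also lie side by side on chromosome 5. Oasl1, which limits translation of Irf7, read 8.14, 7.56 and 7.40 in WT and 6.75, 7.71, 6.76, 7.41 and 6.24 in Sca1-MALT1 (difference -0.72, SE 0.34, adjusted p = 0.514). Replicates 1, 3 and 5 were below all WT arrays. Oasl2 read 10.01, 9.01 and 9.03 in WT and 6.80, 10.02, 7.63, 9.38 and 8.91 in Sca1-MALT1. It had the widest range of all members among the Sca1-MALT1 arrays, 3.22 log2 units, and its difference was -0.80 (SE 0.70, adjusted p = 0.754).

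The Ifit genes, whose products bind viral RNA and block its translation, form a cluster on chromosome 19. Ifit1 read 9.45, 8.58 and 7.45 in WT and 6.25, 8.81, 7.48, 7.51 and 7.14 in Sca1-MALT1. The WT arrays themselves spanned 2.01 log2 units, and the difference of -1.05 (SE 0.59, adjusted p = 0.594) was within that spread. Ifit3 read 8.08, 7.90 and 8.49 in WT and 7.23, 8.46, 7.90, 7.15 and 7.59 in Sca1-MALT1, a difference of -0.49 (SE 0.30, adjusted p = 0.637). Ifit2 stood at -0.02 (SE 0.37) and changed sign in 5 of 17 alternative fits. Genes of this cluster have close copies, and the array values may mix them.

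The Mx genes encode dynamin-like GTPases that trap viral particles. Mx2 read 6.85, 6.72 and 6.72 in WT and 6.39, 6.72, 6.54, 6.67 and 6.35 in Sca1-MALT1. No Sca1-MALT1 array reached the lowest WT array, but replicate 2 came within rounding of it, and the difference was -0.23 (SE 0.12, adjusted p = 0.559). These signals lie close to the array medians, and the files hold no detection call for them. Mx1, its neighbour on chromosome 16, stood at -0.17 (SE 0.29).

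Rsad2, the gene of the antiviral enzyme viperin, had a different order of arrays from most members. It read 13.23, 13.25 and 12.86 in WT and 12.24, 11.62, 13.57, 13.17 and 12.31 in Sca1-MALT1 (difference -0.53, SE 0.41, adjusted p = 0.719). Its lowest array was Sca1-MALT1 replicate 2, the highest array for 15 other members, and its highest was replicate 3. All 3 of its probe sets had replicate 2 lowest and replicate 3 highest, although their differences between the genotypes had different signs, -0.53, -0.14 and 0.36. Ifitm3, which keeps viruses from fusing with endosomal membranes, stood at -0.46 (SE 0.52), with Sca1-MALT1 arrays from 10.62 to 12.80.

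The guanylate-binding proteins, GTPases that attack the vacuoles of microbes, were the members with the highest single reading relative to WT. Gbp3 read 10.61, 10.99 and 10.71 in WT and 11.10, 12.81, 10.04, 11.37 and 11.70 in Sca1-MALT1 (difference 0.63, SE 0.52, adjusted p = 0.739). Of its Sca1-MALT1 arrays 4 were above all WT arrays and replicate 3 was below them. Gbp2, beside it on chromosome 3, reached 12.99 in replicate 2 against 10.59 to 11.28 in the other Sca1-MALT1 arrays and 11.05 ± 0.26 (n = 3) in WT. Its difference of 0.30 (SE 0.50) became -0.12 without replicate 2.

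Of the ISG15 system, both measured genes had intervals that spanned 0. Usp18, the protease that removes ISG15 from proteins and dampens receptor signalling, stood at -0.24 (SE 0.44), with Sca1-MALT1 signals from 6.85 to 8.95. Herc6, the ligase that attaches ISG15, stood at -0.14 (SE 0.31), and its 3 dimmer probe sets had the opposite sign.

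The 7 remaining members all had differences below 0, with a median of -0.52. Ifi27l2a, a small mitochondrial protein gene, had the largest difference of all members. Its signal was 11.74, 11.03 and 11.13 in WT and 8.78, 10.50, 8.56, 10.68 and 9.78 in Sca1-MALT1. All 5 Sca1-MALT1 arrays were below all WT arrays, with a mean of 9.66 ± 0.97 (n = 5) against 11.30 ± 0.39 (n = 3). The log2 difference was -1.64 (SE 0.51, 3.12-fold lower, adjusted p = 0.359), and it was between -2.02 and -1.37 in all alternative fits.

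Xaf1, a pro-apoptotic antagonist of XIAP, read 10.13, 10.19 and 9.70 in WT and 9.14, 10.37, 9.36, 9.36 and 9.23 in Sca1-MALT1 (difference -0.52, SE 0.28, adjusted p = 0.582). Replicate 2 was above all WT arrays and the other Sca1-MALT1 arrays were below them. Rtp4, a chaperone of receptor trafficking, read 11.74, 10.78 and 10.44 in WT and 9.27, 11.63, 9.93, 9.94 and 10.30 in Sca1-MALT1 (difference -0.77, SE 0.51, adjusted p = 0.660). Trim30a, a negative regulator of Toll-like receptor signalling, read 11.70, 10.37 and 11.03 in WT and 10.63, 11.48, 10.23, 9.88 and 9.90 in Sca1-MALT1 (difference -0.61, SE 0.42, adjusted p = 0.675). In both genes replicate 2 was again the highest Sca1-MALT1 array. Samd9l, Parp14 and Ifi35 stood at -0.27, -0.19 and -0.12, with SEs of 0.25, 0.18 and 0.18. The dimmer probe sets moved some of these values, to -0.67 without overlap and -0.11 for Ifi35 and to -0.082 for Rtp4. Those of Xaf1, Trim30a and Parp14 stood at -0.61 (SE 0.19), -0.28 (SE 0.25) and -0.25 (SE 0.23).

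**Figure D2:**
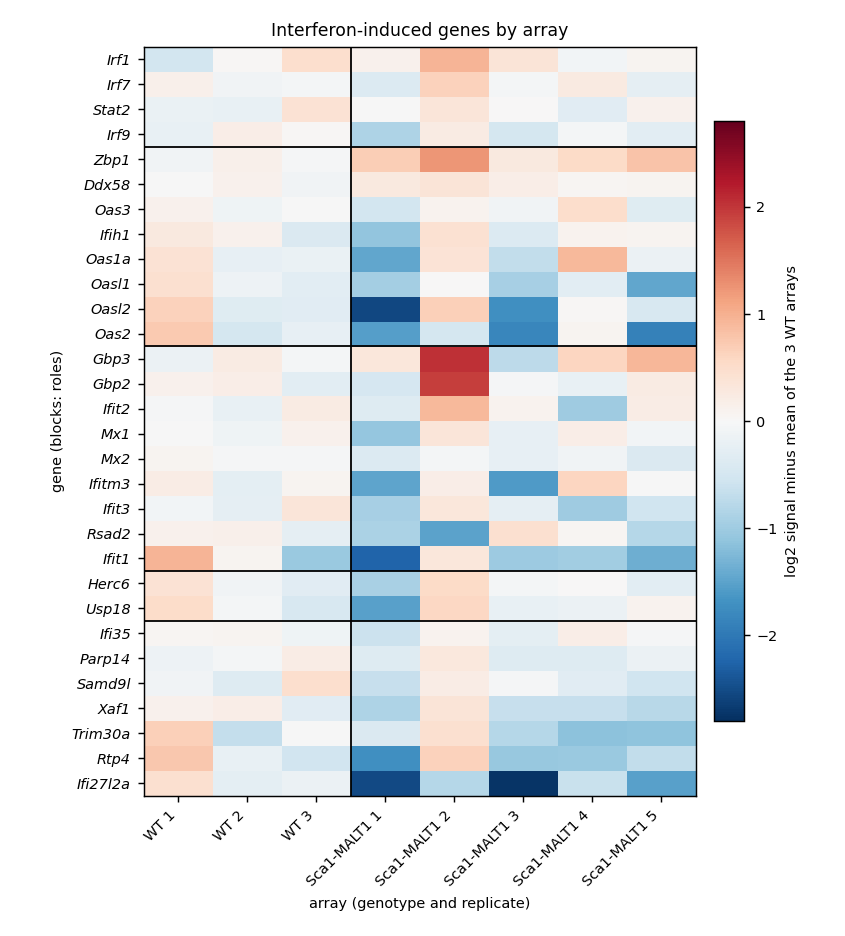
Log2 signal of each of the 30 interferon-induced genes on each of the 8 arrays, minus the gene's mean over the 3 WT arrays; horizontal lines separate the roles and the vertical line the genotypes. Sca1-MALT1 replicate 1 is the lowest array in 15 genes and replicate 2 the highest in 15 genes.

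The members varied more among the Sca1-MALT1 arrays than most genes did. Of the members, 22 of 30 had a range over 1 log2 unit among the 5 Sca1-MALT1 arrays, where 23.9% of all genes did. The SD was larger in Sca1-MALT1 than in WT for 25 of 30 members, where this held for 59.8% of all genes. Their median SD was 0.57 in Sca1-MALT1 and 0.29 in WT, against 0.24 and 0.20 over all genes. This spread was not particular to the members. In a wider set of 48 induced genes, described below, the median SD was 0.54 in Sca1-MALT1 and 0.27 in WT. The SD was larger in Sca1-MALT1 for 34 of these 48. Over the 30 members, the median signal relative to the WT mean was -0.87, 0.35, -0.26, -0.066 and -0.27 in Sca1-MALT1 replicates 1 to 5, and 0.12, -0.099 and -0.077 in the WT arrays. Over all genes the same medians lay between -0.035 and 0.073. Replicate 1 was thus the lowest array and replicate 2 the highest.

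Counts of extremes gave the same order. Sca1-MALT1 replicate 2 was the highest of all 8 arrays in 15 of 30 members, where it was so in 5.89% of all genes. Replicate 1 was the lowest in 15 of 30, where it was so in 10.7% of all genes. WT replicate 1 was the highest in 7 members, among them Ifi27l2a, Oas2 and Ifit1, where it was so in 13% of all genes. Members were counted as single genes here, although they share the inducing pathway and the libraries.

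Interferon pathway genes outside the list were measured for 37 of 45 listed, and none passed the test. Limma called 0 of 37 at the adjusted threshold, where 0.0879% of all genes were called, and 6 at an unadjusted p under 0.05, where 10.2% were. The differences were above 0 in 23 and below 0 in 14, with a median of 0.06. Socs3, a feedback inhibitor of JAK kinases downstream of several cytokines, had the lowest p, reading 8.68, 8.83 and 9.44 in WT and 9.70, 11.60, 10.30, 10.92 and 10.84 in Sca1-MALT1. All 5 Sca1-MALT1 arrays were above all WT arrays (difference 1.69, SE 0.40, adjusted p = 0.246). Tlr7, the endosomal sensor of single-stranded RNA, stood at -0.77 (SE 0.22, adjusted p = 0.322), and Mavs, the adaptor of RIG-I and MDA5, at 0.31 (SE 0.11, adjusted p = 0.393).

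The receptor chains of type I interferon pointed in different directions. Ifnar1 read 9.73, 9.81 and 9.68 in WT and 9.16, 9.30, 9.16, 9.58 and 9.37 in Sca1-MALT1, without overlap (difference -0.43, SE 0.12, adjusted p = 0.322). Ifnar2 read 10.39, 10.09 and 10.16 in WT and 10.93, 10.36, 10.54, 10.73 and 10.86 in Sca1-MALT1, where 4 arrays were above all WT arrays (difference 0.47, SE 0.16, adjusted p = 0.377). Il10rb, a chain of the interferon lambda receptor, stood at 0.38 (SE 0.14, adjusted p = 0.412). For Ifnar1, Ifnar2, Il10rb and Mavs the most variable probe set had the opposite sign. The gamma receptor chains Ifngr1 and Ifngr2 stood at 0.32 (SE 0.27) and -0.20 (SE 0.17), the lambda receptor chain Ifnlr1 at -0.36 (SE 0.40), and the kinases Jak1, Jak2 and Tyk2 at 0.59, 0.16 and -0.02. Stat3 differed by 0.21 (SE 0.18), and Irf2, Irf3, Irf5 and Irf8 by 0.03, -0.05, -0.51 and -0.38.

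Transcripts of the type I ligands read low on all arrays. The 7 genes measured, Ifna1, Ifna2, Ifna4, Ifna5, Ifna11, Ifnab and Ifnb1, read between 3.79 and 6.72, and 6 of them were below the lowest array median on every array. The alpha genes are near-identical copies, so their values may not be separate. Ifng, the gene of interferon gamma, differed widely between arrays, with 7.44, 7.75 and 7.78 in WT and 9.66, 11.63, 10.20, 6.40 and 8.46 in Sca1-MALT1. Replicates 1, 2, 3 and 5 were above all WT arrays and replicate 4 was below them (difference 1.61, SE 0.999, adjusted p = 0.637).

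A wider set of induced genes was split between both directions. Of 55 listed, 48 were measured, 22 with a difference below 0, and the median was 0.07. Limma called 0 of 48 at the adjusted threshold, where 0.0879% of all genes were called, and 3 at an unadjusted p under 0.05, where 10.2% were. The 31 genes listed as type I induced had a median of -0.07, and the 17 listed as type II targets and GTPases a median of 0.27, with 13 above 0. Trim25, the ubiquitin ligase that activates RIG-I, read 13.01, 12.94 and 13.01 in WT and 12.46, 12.72, 12.50, 12.49 and 12.45 in Sca1-MALT1, without overlap (difference -0.46, SE 0.10, adjusted p = 0.219). Its difference was -0.13 (SE 0.26, adjusted p = 0.898) with the most variable probe set. Eif2ak2, the gene of the RNA-activated kinase PKR, stood at -0.68 (SE 0.19, adjusted p = 0.302), but at 0.064 with the most variable probe set. Ciita, the master regulator of MHC class II, stood at -0.32, the nuclear body gene Sp100 at 0.36, the lysosomal reductase gene Ifi30 at -0.66 and the DNA sensor gene Ifi203 at -0.38, where the adjusted p ran from 0.470 to 0.545.

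Among the type II targets, Sca1-MALT1 replicate 2 stood above the other arrays. It was the highest of all 8 arrays in 15 of these 17 genes, where it was so in 5.89% of all genes. Its median was 0.87 above the WT mean. The medians of the other Sca1-MALT1 arrays were -0.076, 0.18, -0.22 and 0.20 in replicates 1, 3, 4 and 5. The same array also had the highest Ifng signal, 11.63. Iigp1, an immunity-related GTPase named here after its values were seen, reached 12.48 in replicate 2 against 7.19 to 9.14 in the other Sca1-MALT1 arrays and 9.38 to 9.46 in WT.

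**Figure D3:**
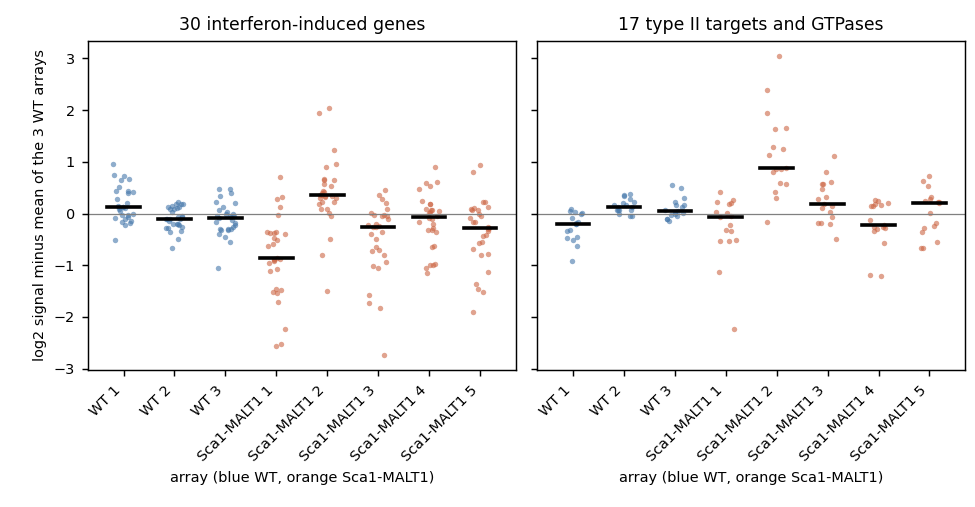
Log2 signal minus the mean of the 3 WT arrays for the 30 interferon-induced genes (left) and the 17 type II targets and GTPases (right); each point is a gene, black bars are the medians over genes on an array. Replicate 2 of Sca1-MALT1 has the highest median in both panels, 0.35 on the left and 0.87 on the right.

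Markers of several cell types also differed among the Sca1-MALT1 arrays. The mean log2 signal of 8 NK cell markers was highest in Sca1-MALT1 replicate 2, at 10.39, against 9.03 to 9.46 in WT, and lowest in replicate 4, at 8.41. The single markers were split. Ncr1, Klrd1, Nkg7 and Tbx21 were highest in replicate 2. Gzma was highest in WT replicate 3, at 11.01, Prf1 and Ccl5 in Sca1-MALT1 replicate 3 and Eomes in replicate 5. By genotype, 5 of the 8 differences were above 0 and 3 below, with Gzma at -2.76. The 8 T cell markers read 10.14, 10.44, 10.49, 8.90 and 10.50 in Sca1-MALT1 replicates 1 to 5 and 9.06 to 9.37 in WT. The 11 stem and progenitor markers read 7.86, 10.21, 8.65, 8.45 and 10.34 in Sca1-MALT1 and 10.79, 10.24 and 9.36 in WT. Replicate 1 was lowest for them as it was for the interferon-induced genes, but the other arrays did not share an order. Replicate 5 was the highest Sca1-MALT1 array for the stem and progenitor markers, where the median of the interferon-induced genes was -0.27 relative to WT. The part of these marker lists in the differences between arrays was not tested.

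Other marker lists differed by genotype or by array. The 9 plasma cell markers read 11.18 to 12.94 in Sca1-MALT1 and 9.32 to 9.44 in WT, and the 9 B lineage markers 7.54 to 8.66 against 10.04 to 10.79. Past the adjusted threshold of limma were 1 plasma cell marker, higher, and 3 B lineage markers, lower. The latter were Vpreb1, Igll1 and Rag1, at -5.55, -3.92 and -5.88. The other B lineage markers had smaller differences, from -2.28 for Ebf1 to -0.23 (SE 0.45) for Blnk. Cd79a read 10.11 in Sca1-MALT1 replicate 1, above its WT arrays at 8.51 to 9.05. Plasmacytoid dendritic cells, the main producers of type I interferon, had 9 markers at 8.48 to 9.08 in Sca1-MALT1 and 9.11 to 9.21 in WT, with 6 of 9 below 0 and none past the adjusted threshold. Spib had the largest of these differences, at -2.21 (SE 0.43), and the gap between the list means rested largely on it. Siglech read 6.08 to 6.77, close to the array medians. Pacsin1, Ccr9 and Klk1 went the other way, at 0.62 (SE 0.19), 0.22 (SE 0.50) and 0.10 (SE 0.11). Bst2 and Tlr7 are also in the wider interferon lists above, so these markers are not a separate measure. The 7 monocyte and macrophage markers read 8.34 to 10.07 against 8.78 to 10.31, and the 9 neutrophil markers 10.44 to 13.83 against 12.11 to 12.79, both highest among the Sca1-MALT1 arrays in replicate 4. The 8 endothelial markers read 6.44 to 7.34 against 7.09 to 8.13, and 7 erythroid markers 9.29 to 10.20 against 8.68 to 8.94. Genes of mature cells were thus present beside stem cell genes in the sorted fraction, and the part of each list in the interferon-induced genes was not tested.

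The genotypes overlapped in the measures of RNA quality at hand. The 3' minus 5' signal of the Gapdh control probe sets was 2.70 to 2.92 in WT and 2.25 to 3.20 in Sca1-MALT1 (exact permutation p = 0.607), and that of beta-actin 1.45 to 2.14 and 1.25 to 2.49 (exact permutation p = 0.679), both highest in replicate 5. Over all genes, the correlation of any pair of arrays was between 0.956 and 0.983.

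**Figure D4:**
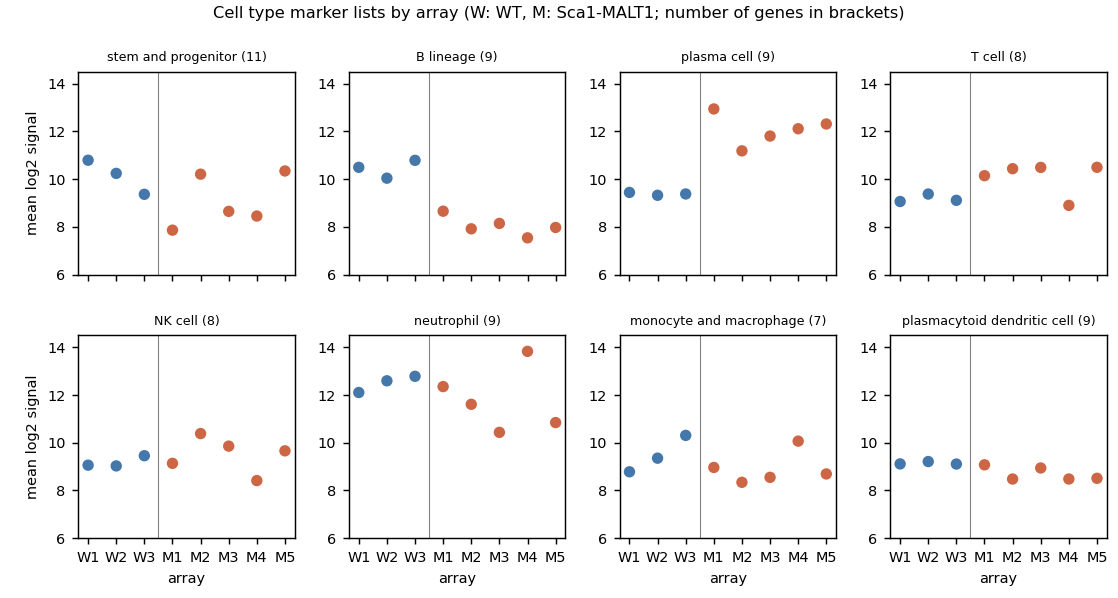
Mean log2 signal of 8 cell type marker lists on each of the 8 arrays (blue WT, orange Sca1-MALT1); each point is 1 array and the number of genes in a list stands in brackets. The mean of the plasma cell markers lies above WT in all 5 Sca1-MALT1 arrays. That of the B lineage markers lies below, largely through Vpreb1, Igll1 and Rag1. Stem and progenitor markers range from 7.86 to 10.34 among the Sca1-MALT1 arrays.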

How the data were processed

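Gene expression was measured on 8 arrays, 3 WT and 5 Sca1-MALT1, after linear RNA amplification, per the labels' protocols. The deposited log2 values were made by the authors with RMA, which corrects background, normalizes by quantiles and summarises probe sets, per the submitters' processing notes; the version is not given in the sources used here. They were used as deposited, with no filter. RMA gives no detection call, and the number of arrays limits the precision. Of 45101 probe sets, 34945 had 1 gene symbol, 932 several and 9160 were not listed; 64 controls were left out. Symbols were updated through Entrez identifiers (RefSeq, GRCm38.p6).

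Limma 3.58.1 (R 4.3.3) was fitted over all 18193 genes with genotype as the only term, checked on simulated data, with Benjamini-Hochberg adjustment over all genes and a threshold of 0.05. Single measures were compared by a two-sided exact permutation test over 56 splits, whose smallest p is 0.0179. Values are given in every array for the 12 members with the lowest p, the 3 with the widest Sca1-MALT1 range and those without overlap; of the other lists, the 6 with the lowest p and the ligands, receptors and STATs are named. Members and lists were chosen with earlier results of these data known. Alternatives were other normalizations, filters, probe set choices, variance models, a looser threshold, a replicate block, other motif lengths and leaving out each array. Whether each sample is a separate animal is not stated in the labels, so the p-values cover only the variation among these samples, possibly technical.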

Additional observations from a re-analysis of the deposited data

Results flagged for a closer look

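In 62 checks for a single array far from the other 4 of the Sca1-MALT1 group, 5 results stood out, where chance gives about 1 in 20. Sca1-MALT1 replicate 2 was above the rest in 4 of them, which share that array and are not separate results. Xaf1 read 10.37 there against 9.14 to 9.36 in the other Sca1-MALT1 arrays, Parp14 read 11.23 against 10.57 to 10.76, Gbp2 read 12.99 against 10.59 to 11.28, and Trim25 read 12.72 against 12.45 to 12.50. The remaining result was Ifna2, which read 5.65 in Sca1-MALT1 replicate 1 against 5.01 to 5.15 in the others, below the array medians in each.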

How the results depend on the processing

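No member and no gene of the wider lists passed the adjusted threshold of 0.05 in any of 17 refits, nor at 0.10; the lowest adjusted p of a member was 0.161. The median of the members stayed below 0. It was between -0.27 and -0.20 in the refits given all 8 arrays, the replicate block among them. With an array left out it was between -0.32 and -0.076. Across the refits 16 to 26 members were below 0. Of the 30 members 19 kept their sign in all refits that held them. With the most variable probe set the sign turned for Herc6 (0.37), Rsad2 (0.36), Ifnar1 (0.11), Ifnar2 (-0.064), Il10rb (-0.42), Mavs (-0.069) and Eif2ak2 (0.064), and with the mean of probe sets for Herc6 (0.14) and Il10rb (-0.020); the cause was not tested. Array quality weights turned Ifit2 (0.13). Replicate numbers did not pair the arrays, with correlations of -0.22, -0.038 and 0.0064 between same-numbered arrays and 0 of 6 arrays closest to their own number; the replicate block turned Ifit2 (0.22), called 0 members and moved the count over all genes from 16 to 0. With single arrays left out the ranges that cross 0 were -0.12 to 0.49 for Gbp2, -0.31 to 0.065 for Herc6, -0.38 to 0.050 for Ifih1, -0.26 to 0.22 for Ifit2, -0.11 to 0.15 for Irf7, -0.30 to 0.053 for Mx1, -0.48 to 0.11 for Oas1a, -0.22 to 0.033 for Oas3, -0.079 to 0.22 for Stat2 and -0.47 to 0.076 for Usp18. The median of the wider induced genes ran from -0.11 (without Sca1-MALT1 replicate 2) to 0.15 with single arrays left out, and was 0.17 with the replicate block. The ISRE core with a final C added, and with its final A removed, was found in 11 and 15 of 24 members, in place of 13, against 0.944% and 9.76% of all genes. The number of arrays and the missing detection call limit what can be read from dim members.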

Other observations

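Some induced genes outside the 30 members split the arrays far apart in both genotypes; they are named here after their values were seen. Ifi202b, a DNA-binding protein of the interferon-inducible p200 family, read 4.37 in WT replicate 2 and 4.42 in Sca1-MALT1 replicate 4, and between 8.38 and 9.98 on the other 6 arrays. Trim30d, which lies beside the member Trim30a on chromosome 7, read 5.49 in WT replicate 2, 6.14 and 4.34 in Sca1-MALT1 replicates 3 and 4, and 8.13 to 9.37 on the other 5. Its second probe set was lowest on the same 3 arrays, at 5.65 to 5.95. Trim34a, on the same chromosome, was low on the same 3 arrays too, at 7.05, 6.61 and 6.61 against 9.83 to 11.34, but its dimmer probe set was highest on those arrays. Over all 18193 genes, 188 (1.03%) spanned more than 4 log2 units over the 8 arrays.

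Ifi44l, an interferon-induced gene of unsettled function, was low in other arrays. It read 5.03 and 5.47 in Sca1-MALT1 replicates 3 and 5, 6.92 in replicate 1, and 9.70 and 9.38 in replicates 2 and 4, against 8.50 to 9.75 in WT (difference -1.81, SE 1.12, adjusted p = 0.636). A second probe set gave 4.13 and 4.24 in replicates 3 and 5 and 8.87 to 9.11 in replicates 2 and 4.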
